A study of Homo sapiens with 6 samples.

Results

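The amino acid transporter families described here are the protein-coding genes whose symbol starts with SLC1A, SLC3A, SLC6A, SLC7A, SLC36A, SLC38A or SLC43A. The rule used gene names only, and it found 60 genes among the 58825 gene rows of the table. It took in SLC7A6OS, a gene named for its place on the opposite strand of SLC7A6 and not known as a transporter, which was counted with the others and is set apart where it matters. The cells were SKOV3, a human ovarian cancer cell line, given either a control siRNA without a target (NC) or an siRNA against EIF5A2 (si-EIF5A2), with 3 libraries each, at 48 h. All 6 libraries came from this line with no other treatment, and knockdown rested on 1 siRNA duplex. The labels do not say that the libraries of a group came from separate cultures, so the p-values measure the spread between these libraries, which may be technical. RNA of the whole culture was sequenced, so fewer cells of a kind and less RNA per cell cannot be told apart.

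Amino acid carriers sit in the plasma membrane and in the membrane of the lysosome. Some use the sodium gradient to concentrate amino acids in the cell, some use protons, and others only exchange an amino acid inside the cell for one outside. The heteromeric carriers consist of a light chain from the SLC7 family, which forms the transport path, and a heavy chain from the SLC3 family, which brings the light chain to the cell surface. Tumor cells are known to depend on glutamine, leucine and cystine taken up by such carriers. When amino acids run short, the transcription factor ATF4 raises the mRNA of many of these carriers and of enzymes that make amino acids, while on the lysosome some carriers report amino acid levels to the kinase mTOR.

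The libraries held between 46900204 and 74142267 estimated counts. Levels are given as CPM, counts scaled to the library total after edgeR's TMM factors. EIF5A2, the targeted translation factor, stood at 27.8, 29.8 and 29.9 CPM in the NC libraries and at 2.76, 4.04 and 4.27 CPM in the si-EIF5A2 libraries, or 12.7% of the NC mean. ERBB2, which SKOV3 cells are known to carry in many copies, lay between 42.1 and 48.6 CPM in all 6 libraries. Of 7 epithelial markers, 3 (KRT7, KRT8 and PAX8) were called lower by the rule given below and none was called higher. This was 42.9%, against 24.6% of all genes tested called in either direction and 13.6% called lower. EPCAM, ERBB2, KRT18 and KRT19 were not called, and the share was not tested on so few genes. Of 10 markers of blood, endothelial and stromal cells, 4 were high enough to be tested and none was called by the rule given below, PTPRC and CD3E were at 0 in every library, and the summed level was 2.45 to 2.64 CPM in NC and 0.548 to 2.27 CPM in si-EIF5A2 libraries. In NC most of it was the endothelial marker PECAM1, with 1.62 to 2.04 CPM in NC and 0 to 0.667 CPM in si-EIF5A2 libraries (unadjusted p = 0.0407, and 0.0941 after Benjamini-Hochberg adjustment in the edgeR test described below), and its part in the results on transporters was not tested.

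Among the 60 genes, 28 passed the filter on low counts and were tested, and 32 were not. A gene was called when its adjusted p was under 0.05 and its fold change over 1.5 in edgeR's quasi-likelihood (QL) test, with Benjamini-Hochberg (BH) adjustment over all 16208 genes tested. By this rule, 9 of the 28 genes (32.1%) were called, against 24.6% of all genes tested. The 6 genes called lower (21.4%) were SLC43A3, SLC7A7, SLC36A1, SLC43A1, SLC6A17 and SLC6A9, against 13.6% of all genes. The 3 called higher (10.7%) were SLC1A3, SLC7A6 and SLC7A2, against 11.1% of all genes. The share called lower was above that of all genes and the share called higher was close to it, but the members are few, and no test of these shares was made.

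Without a limit on the fold change, 18 of the 28 genes (64.3%) had a BH-adjusted p under 0.05 in edgeR's QL test, against 36.9% of all genes, with 8 higher and 10 lower. The changes of 9 of these were smaller than 1.5-fold, and no member had a change over 1.5-fold that missed the p threshold. Several of the 18 were near the threshold when a library was left out (edgeR QL, BH-adjusted p). SLC1A4 lay at 0.0565 to 0.0829 in every such fit. SLC6A8, SLC36A4, SLC38A9 and SLC6A17 reached 0.133 to 0.15, and SLC1A3, SLC1A5 and SLC38A2 reached 0.0559 to 0.0718. The rest of the 18 stayed under 0.05. The rule of the study's methods, an unadjusted p under 0.05 and a change over 2-fold, was met by 5 genes (17.9%), against 14.6% of all genes. In 21 of the 28 genes (75%) the CPM of the NC libraries did not overlap those of the si-EIF5A2 libraries, against 51.2% of all genes tested. The median log2 fold change (si-EIF5A2 minus NC) was -0.11 over the 28 genes and -0.01 over all genes, and the median size of the log2 change regardless of sign was 0.38 against 0.45. Read against all genes, the share past the p threshold was higher and the typical change was smaller. Genes with more counts can pass at smaller changes, and 2 of the 28 genes were under 1 CPM in at least 1 library. A comparison with genes of like level was not made.

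**Figure D1:**
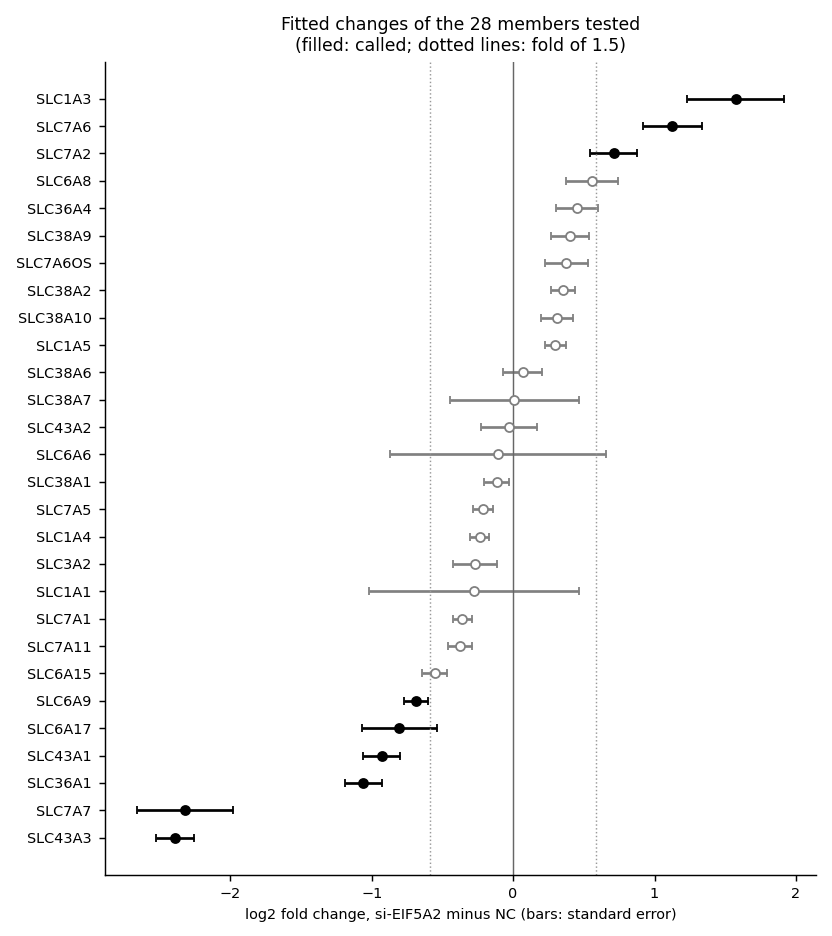
Log2 fold change (x axis, si-EIF5A2 minus NC) of each of the 28 genes tested, with bars for the standard error of the edgeR fit. Filled points are the 9 genes called, dotted lines mark a change of 1.5-fold, and the long bars of SLC6A6, SLC1A1 and SLC38A7 come from libraries that differ within a group.

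The 32 genes that were not tested were at or close to 0. Of these, 24 had 0 counts in all 6 libraries, among them the glial glutamate carrier SLC1A2, the serotonin and dopamine carriers SLC6A4 and SLC6A3, and the heavy chain SLC3A1 with SLC7A13, a light chain. A count of 0 allows a level of up to 0.151 to 0.234 CPM, depending on the library (3 sequenced fragments, counting error only). The other 8 had at most 31 counts, or 0.425 CPM, in any library. The highest of them, the light chain SLC7A8, had 31, 12 and 8 counts in NC and 0 in every si-EIF5A2 library. With no filter on low counts it was called lower (BH-adjusted p = 0.0263 from edgeR's QL test), and by DESeq2 too (BH-adjusted p = 0.00378), but its level stayed near that of a few fragments. The remaining 7 were called by neither, and DESeq2 gave 3 of them no adjusted p.

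To compare levels between genes, CPM were divided by the length of the exons in kilobases. On this scale a few genes made up most of the mRNA of these families. SLC1A5, a sodium-dependent exchanger of glutamine and other neutral amino acids, had the highest mean level over the 6 libraries (183 CPM per kb), followed by the light chain SLC7A5 (163), its heavy chain SLC3A2 (73.7), SLC38A2 (46.4) and SLC7A1 (45.8). On this scale SLC1A5 and SLC7A5 changed places: SLC7A5 was the higher in NC (mean 175 against 164 CPM per kb) and SLC1A5 in si-EIF5A2 libraries (202 against 151). In CPM not divided by length, SLC7A5 was the higher in both groups (mean 831 against 547 in NC, 717 against 673 in si-EIF5A2 libraries). Together these 5 genes made up 73.5 to 74.9% of the summed level in NC and 79.3 to 81.5% in si-EIF5A2 libraries, and SLC1A5 alone 23.2 to 24.1% and 30.2 to 32.2%. The summed level includes SLC43A3, which went from 59.0 to 11.2 CPM per kb. A higher share of the 5 genes therefore does not by itself show a higher level of them. The sum over all 60 genes was 728, 663 and 684 CPM per kb in NC and 622, 640.4 and 657 CPM per kb in si-EIF5A2 libraries, with all si-EIF5A2 values under all NC values. The gap was narrow, between 663 CPM per kb in NC and 657 CPM per kb in si-EIF5A2 libraries. In a sum without SLC43A3, chosen after the data had been seen, the groups overlapped. The values were then 665, 608 and 625 CPM per kb in NC and 609, 628 and 648 CPM per kb in si-EIF5A2 libraries. Sums without other genes were not tested, so the separation cannot be assigned to a single gene.

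**Figure D2:**
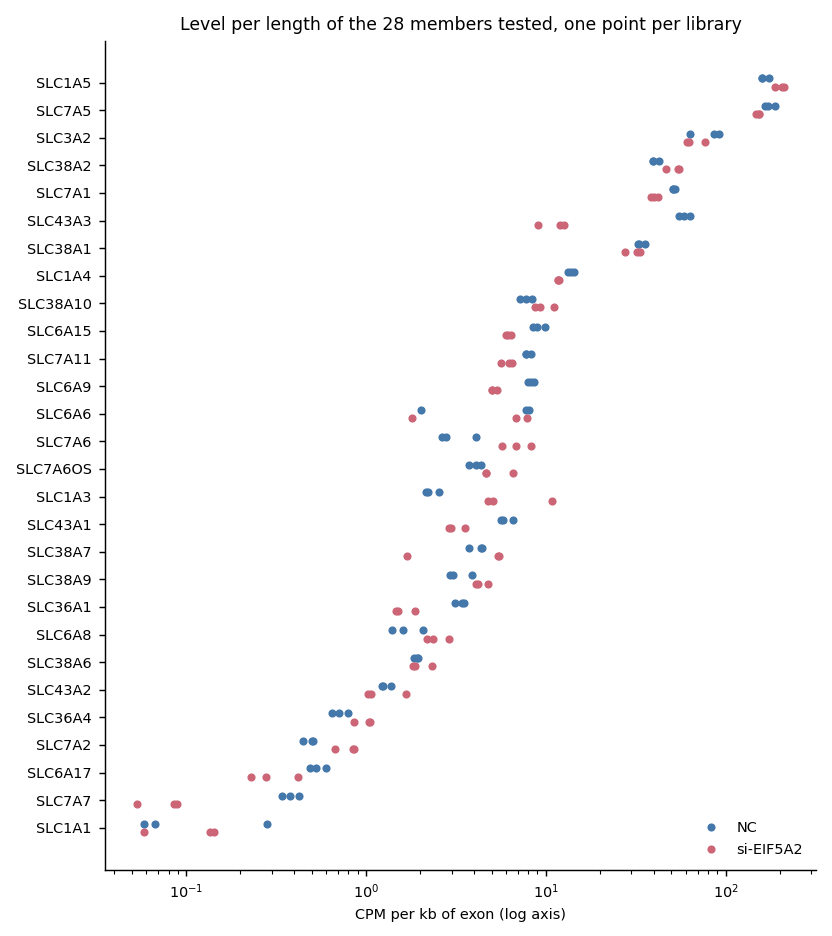
Level per length (x axis, CPM per kilobase of exon, log axis) of the 28 genes tested, sorted by their mean over the 6 libraries, with 1 point per library. SLC43A3 stands out for the gap between the 3 NC and the 3 si-EIF5A2 libraries, and SLC6A6 and SLC38A7 for a library that lies far below the others of its group.

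The promoter windows of these genes were searched for TGATGNAA, the core of the element through which ATF4 and its C/EBP partners act on amino acid genes. The windows come from RefSeq (GRCh38.p14) and hold 250 bases before and 50 after a start site, and both strands were read. Of the 45 members with a window, 6 held a match (13.3%), against 4.46% of 27305 genes, and by window the shares were 8.96% of 67 and 3.62% of 35116. Both sides include genes that did not pass the filter on low counts, and no test of these shares was made. All 6 were among the 23 tested members that had a window, and they include 4 of the 7 genes with the highest level per length. Only SLC1A3 among them was called, so its whole window is shown, with the match in capitals, from chr5:36596338-36596637 on the plus strand.
SLC1A3: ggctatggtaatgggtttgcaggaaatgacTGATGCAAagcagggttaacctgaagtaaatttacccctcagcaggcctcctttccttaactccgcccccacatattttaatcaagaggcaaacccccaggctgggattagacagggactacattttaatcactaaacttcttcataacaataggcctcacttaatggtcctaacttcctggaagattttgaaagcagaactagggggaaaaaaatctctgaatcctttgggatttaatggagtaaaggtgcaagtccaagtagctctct
The other 5 are shown as the match in capitals with the bases around it, so that the variants of the element can be compared, from chr2:64989366-64989425 (SLC1A4, plus strand), chr11:62881710-62881748 (SLC3A2, plus), chr12:46266487-46266546 (SLC38A1, minus), chr13:29595648-29595707 (SLC7A1, minus) and chr19:46784878-46784937 (SLC1A5, minus). In SLC1A4 and SLC3A2 the match lies on the opposite strand, so the capitals show the reverse complement of the element.
SLC1A4: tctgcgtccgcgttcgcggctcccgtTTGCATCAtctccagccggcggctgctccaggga
SLC3A2: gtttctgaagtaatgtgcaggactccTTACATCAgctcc
SLC38A1: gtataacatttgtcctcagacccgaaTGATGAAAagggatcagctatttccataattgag
SLC7A1: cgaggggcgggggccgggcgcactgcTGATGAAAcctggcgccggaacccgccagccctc
SLC1A5: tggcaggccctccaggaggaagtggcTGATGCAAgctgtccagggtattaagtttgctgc
Read on the strand of the element, SLC1A3, SLC1A4 and SLC1A5 share the same 8 letters, as do SLC38A1 and SLC7A1, while SLC3A2 has a variant of its own. The window of SLC7A1 covers the 5′ end of its gene in GENCODE release 29. That of SLC1A3 lies well upstream of the gene there, ending at base 36596637 while the gene starts at base 36606355. The other windows lie inside the gene, at start sites of shorter transcripts. Which start sites these cells use was not tested. A match of letters describes the window only.

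Among the glutamate and aspartate carriers, SLC1A3 was the member with the largest rise of all. SLC1A3 (chr5:36606355-36688334, plus strand, GRCh38) encodes a sodium-coupled carrier best known for clearing glutamate in the brain. Its level was 16.0, 13.5 and 13.9 CPM in NC and 32.0, 29.9 and 67.7 CPM in si-EIF5A2 libraries. Every si-EIF5A2 library was above every NC library, and si-EIF5A2 replicate 3 stood far above the other two. The log2 fold change was 1.57 with a standard error of 0.34 (edgeR QL, BH-adjusted p = 0.0143). Without si-EIF5A2 replicate 3 the log2 fold change was 1.09 (edgeR QL, BH-adjusted p = 0.00103), and with any of the 3 NC libraries left out the gene was no longer called (edgeR QL, BH-adjusted p = 0.0521 to 0.0625). SLC1A1, the other glutamate carrier tested, was close to the limit of detection, at 0.234 to 1.12 CPM in NC and 0.235 to 0.575 CPM in si-EIF5A2 libraries. SLC1A2, SLC1A6 and SLC1A7 were at 0 counts.

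The ASCT exchangers moved in opposite directions by small amounts. SLC1A5 stood at 581, 533 and 529 CPM in NC and at 627, 688 and 705 CPM in si-EIF5A2 libraries, with a log2 fold change of 0.30 (edgeR QL, BH-adjusted p = 0.0168). SLC1A4, which exchanges alanine, serine and cysteine, stood at 99.2, 92.4 and 96.0 CPM in NC and at 80.8, 81.9 and 81.3 CPM in si-EIF5A2 libraries, with a log2 fold change of -0.24 (edgeR QL, BH-adjusted p = 0.0285). In both genes the groups did not overlap, and in both the change was under 1.5-fold. Both are among the genes whose window matched the letters searched above.

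Of the heteromeric transporters, the abundant chains changed little and the scarcer light chains moved most. The heavy chain SLC3A2, also known as the CD98 heavy chain, had 477, 327 and 446 CPM in NC and 325, 397 and 318 CPM in si-EIF5A2 libraries, and the groups overlapped (log2 fold change -0.27, edgeR QL, BH-adjusted p = 0.233). SLC7A5, the light chain that carries leucine and other large neutral amino acids, had 894, 816 and 784 CPM in NC and 697, 727 and 726 CPM in si-EIF5A2 libraries. The groups of SLC7A5 did not overlap, but its log2 fold change of -0.21 did not pass (edgeR QL, BH-adjusted p = 0.0509). Under other settings its adjusted p lay on both sides of 0.05, from 0.0387 to 0.136 (both from edgeR QL). SLC7A11, the light chain of the cystine/glutamate exchanger, fell from 74.7, 80.3 and 75.0 CPM to 60.4, 54.3 and 62.5 CPM, a log2 fold change of -0.38 (edgeR QL, BH-adjusted p = 0.00965) that was under 1.5-fold.

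The ratio of the counts of a light chain to those of the heavy chain within a library does not depend on the scaling between libraries. These counts were not divided by exon length, so the ratio itself is not one of amounts. Exon length is the same in all libraries and does not enter the difference between groups. The log2 ratio of SLC7A5 to SLC3A2 was 1.01 ± 0.27 (SD, n = 3) in NC and 1.06 ± 0.16 (SD, n = 3) in si-EIF5A2 libraries, a difference of 0.04 (2-sided exact permutation test, p = 0.9). For SLC7A11 and SLC3A2 it was -2.42 ± 0.35 (SD, n = 3) and -2.55 ± 0.28 (SD, n = 3), a difference of -0.12 (2-sided exact permutation test, p = 0.7). With 3 libraries against 3 the smallest p this test allows is 0.1, and both differences were smaller than the spread between libraries of a group. The sign of both differences turned when some libraries were left out.

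SLC7A6 and SLC7A7 are closely related light chains, both of which exchange cationic for neutral amino acids, and they moved in opposite directions. SLC7A6 (chr16:68264516-68301823, plus strand) stood at 31.2, 21.1 and 20.2 CPM in NC and at 52.2, 43.3 and 63.1 CPM in si-EIF5A2 libraries. All si-EIF5A2 libraries were above all NC libraries, and NC replicate 1 was the highest of its group. Its log2 fold change was 1.13 with a standard error of 0.21 (edgeR QL, BH-adjusted p = 0.00496). SLC7A6OS, which overlaps it on the opposite strand, had 22.9, 21.4 and 19.6 CPM in NC and 34.4, 24.4 and 24.3 CPM in si-EIF5A2 libraries, with a log2 fold change of 0.38 that did not pass (edgeR QL, BH-adjusted p = 0.095). The use of strand in counting is not given in the sources used here, so reads of these overlapping genes may not have been told apart.

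SLC7A7 (chr14:22773222-22829820, minus strand) was a gene of low level that fell to near the limit of detection. It had 1.95, 1.76 and 2.17 CPM in NC and 0.274, 0.46 and 0.438 CPM in si-EIF5A2 libraries, or 14 to 24 counts in each of the latter. The log2 fold change was -2.32 with a standard error of 0.34 (edgeR QL, BH-adjusted p = 0.00121). On the scale per length, SLC7A7 was at 0.382 CPM per kb in NC while SLC7A6 was at 3.19 CPM per kb, so that SLC7A6 was the more abundant already before knockdown. Of the other light chains, SLC7A10 and SLC7A13 were at 0 counts, and SLC7A8 and SLC7A9 had too few counts to be tested.

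**Figure D3:**
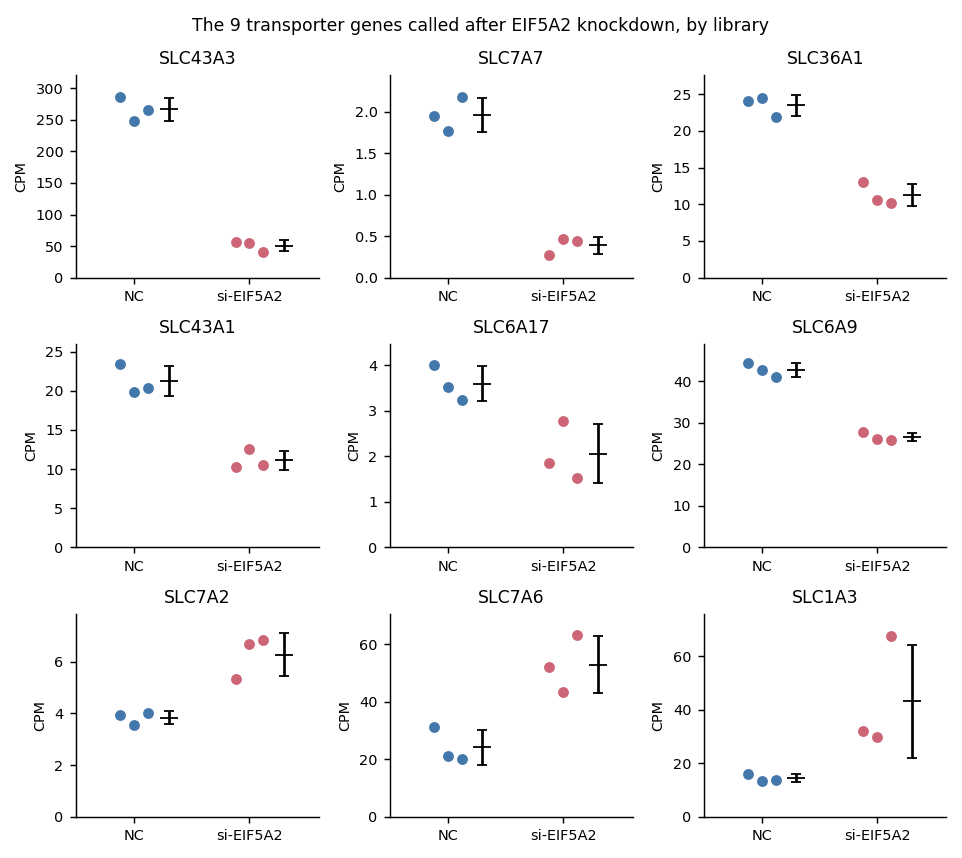
Level (y axis, CPM, from 0) of the 9 genes called in each of the 3 NC libraries (blue) and the 3 si-EIF5A2 libraries (red), with the mean and SD in black. In none of the 9 panels do the groups overlap, which follows largely from picking genes by the call. Among all genes tested, the groups did not overlap in 51.2%. In SLC1A3, si-EIF5A2 replicate 3 lies at 67.7 CPM, far above the other two.

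The cationic amino acid transporters import arginine, lysine and ornithine, and the abundant and the scarce member differed in direction. SLC7A1, the widely expressed member, fell from 394, 404 and 391 CPM to 323, 298 and 306 CPM, a log2 fold change of -0.36 (edgeR QL, BH-adjusted p = 0.00355) that was under 1.5-fold. SLC7A2, known as an inducible carrier of the liver and of macrophages, rose from 3.95, 3.53 and 4.02 CPM to 5.32, 6.67 and 6.82 CPM. Its log2 fold change was 0.71 with a standard error of 0.17 (edgeR QL, BH-adjusted p = 0.0123). Summed over the group per length, the level was 51.3 to 52.9 CPM per kb in NC and 39.6 to 42.6 CPM per kb in si-EIF5A2 libraries, of which SLC7A1 made up nearly the whole. SLC7A3, SLC7A4 and SLC7A14 were at 0 counts.

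The SLC43 members fell furthest as a group, from 71.1, 61.9 and 65.9 CPM per kb in NC to 16.6, 16.6 and 13.7 CPM per kb in si-EIF5A2 libraries when summed. Most of this was SLC43A3 (chr11:57406954-57427580, minus strand), which is placed in this family by sequence but is known as a carrier of purine nucleobases such as adenine rather than of amino acids. It had 286, 248 and 266 CPM in NC and 57.0, 54.3 and 40.9 CPM in si-EIF5A2 libraries, which left 19.0% of the NC mean. The log2 fold change of -2.39 was the largest fall among the 28 genes, with a standard error of 0.13 (edgeR QL, BH-adjusted p = 1.32e-05), and lay between -2.49 and -2.27 with any library left out. On the scale per length, SLC43A3 went from 59.0 CPM per kb in NC, the fourth highest level of the families there, to 11.2 CPM per kb. It overlaps AP000781.2 on the same strand, which had 5.86 CPM in si-EIF5A2 replicate 3 and at most 0.268 CPM in any other library.

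SLC43A1 (chr11:57484534-57515786, minus strand), which carries leucine and other branched-chain amino acids without sodium, lies close to SLC43A3 on the same strand. Its level fell from 23.4, 19.8 and 20.4 CPM to 10.3, 12.5 and 10.6 CPM, a log2 fold change of -0.93 with a standard error of 0.13 (edgeR QL, BH-adjusted p = 0.000894). SLC43A2, a carrier of the same kind encoded on chromosome 17, had 13.2, 14.6 and 13.1 CPM in NC and 11.0, 11.4 and 17.8 CPM in si-EIF5A2 libraries, and the groups overlapped. Thus both members on chromosome 11 were called lower, and SLC43A2 had a log2 fold change of -0.03 whose sign turned with some libraries left out.

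Of the proton-assisted transporters, SLC36A1 (chr5:151437046-151492381, plus strand), which moves small amino acids out of the lysosome and across the cell surface together with protons, was called lower. It had 24.0, 24.5 and 21.9 CPM in NC and 13.1, 10.5 and 10.2 CPM in si-EIF5A2 libraries. The log2 fold change was -1.06 with a standard error of 0.13 (edgeR QL, BH-adjusted p = 0.0005). SLC36A4, a carrier of proline and tryptophan, was higher by less than 1.5-fold, with 6.85, 7.75 and 6.32 CPM in NC and 10.1, 8.37 and 10.2 CPM in si-EIF5A2 libraries (log2 fold change 0.45, edgeR QL, BH-adjusted p = 0.0469). SLC36A2 and SLC36A3 were at 0 counts.

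In the SLC38 family no member was called, against 24.6% of all genes tested. Only 2 sodium-coupled importers (system A) and 4 other members were tested, too few to read this as a trait of the family. SLC38A2, a sodium-coupled importer of small neutral amino acids (system A) known to be induced when amino acids are short, rose from 261, 262 and 283 CPM to 358, 309 and 364 CPM, which was under 1.5-fold (log2 fold change 0.35, edgeR QL, BH-adjusted p = 0.0128). SLC38A1, the other abundant system A carrier, had 327, 331 and 356 CPM in NC and 322, 278 and 337 CPM in si-EIF5A2 libraries, and the groups overlapped. SLC38A9, which signals arginine in the lysosome to mTOR, rose from 27.0, 25.9 and 34.5 CPM to 42.4, 37.1 and 36 CPM (log2 fold change 0.40, edgeR QL, BH-adjusted p = 0.0447), also under 1.5-fold. In SLC38A7, a lysosomal exporter of glutamine, si-EIF5A2 replicate 1 stood at 11.9 CPM while the other two libraries of the group stood at 38.5 and 37.8 CPM and the NC libraries at 26.2 to 30.9 CPM. SLC38A10 had a log2 fold change of 0.31 (edgeR QL, BH-adjusted p = 0.062) and SLC38A6 of 0.07 (edgeR QL, BH-adjusted p = 0.738). The system N carriers SLC38A3 and SLC38A5 were at 0 counts and at no more than 4 counts.

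Of the SLC6 carriers of amino acids and taurine, 2 of the 4 tested were called, both lower (against 13.6% of all genes), but the call of SLC6A17 was lost under most choices of libraries. SLC6A9 (chr1:43991500-44031467, minus strand), a glycine carrier, had 44.4, 42.7 and 41.1 CPM in NC and 27.7, 26 and 26 CPM in si-EIF5A2 libraries, with little spread in either group. Its log2 fold change was -0.69 with a standard error of 0.08 (edgeR QL, BH-adjusted p = 0.000491). CCDC24, which overlaps it on the opposite strand, had at most 2.84 CPM in any library. SLC6A17 (chr1:110150486-110202202, plus strand), which loads neutral amino acids into synaptic vesicles in neurons, had only 4.0, 3.53 and 3.23 CPM in NC and 1.86, 2.78 and 1.52 CPM in si-EIF5A2 libraries. The fitted log2 fold change of -0.80 was at the edge of the threshold (edgeR QL, BH-adjusted p = 0.0469), and it was no longer called when any library other than si-EIF5A2 replicate 2 was left out (edgeR QL, BH-adjusted p = 0.0711 to 0.133).

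SLC6A15, a carrier of branched-chain amino acids and proline, fell from 86.9, 74.8 and 78.6 CPM to 56.5, 52.5 and 54.4 CPM. Its log2 fold change of -0.56 was just short of 1.5-fold (edgeR QL, BH-adjusted p = 0.00155), and it was called with NC replicate 2 or si-EIF5A2 replicate 1 left out or with no filter on low counts. The taurine carrier SLC6A6 could not be compared well, since it had 16.8 CPM in NC replicate 1 and 15.0 CPM in si-EIF5A2 replicate 2 but 56.8 to 66.8 CPM in the other 4 libraries. The creatine carrier SLC6A8 rose from 11.4, 7.67 and 8.81 CPM to 13.1, 12.0 and 15.9 CPM, under 1.5-fold (log2 fold change 0.56, edgeR QL, BH-adjusted p = 0.0458), and was called without NC replicate 1. The carriers of GABA, serotonin, dopamine and noradrenaline were at no more than 20 counts in any library.

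Genes that act around these carriers were counted from lists chosen by function. Of 25 genes of the amino acid response that passes through ATF4, all tested, 9 were called lower and 0 higher. This was 36%, against 24.6% of all genes called, 13.6% lower and 11.1% higher, and the median log2 fold change was -0.07. ATF4 itself had 1404, 1354 and 1342 CPM in NC and 643, 652 and 609 CPM in si-EIF5A2 libraries, with a log2 fold change of -1.11 (edgeR QL, BH-adjusted p = 1.38e-05). Asparagine synthetase, ASNS, fell from 340.0, 349 and 403 CPM to 213, 224 and 199 CPM, a log2 fold change of -0.78 (edgeR QL, BH-adjusted p = 0.000348). The largest falls at 5 CPM or more were SHMT2, the mitochondrial serine hydroxymethyltransferase (-1.65), the translation repressor EIF4EBP1 (-1.24) and the glutathione-degrading enzyme CHAC1 (-1.12). Under 1.5-fold, TRIB3 (0.48), EIF2AK4 (0.42) and ALDH18A1 (0.29) rose and PSAT1 (-0.39) fell. Their BH-adjusted p were 0.00593, 0.00792, 0.0186 and 0.00354 (edgeR QL).

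Of 28 enzymes of amino acid metabolism tested, 5 were called lower and 2 higher (25%), close to the 24.6% of all genes, with a median log2 fold change of -0.17. The largest falls were in BCAT2 (-2.22), the mitochondrial aminotransferase of branched-chain amino acids, ASS1 (-1.35), which makes the precursor of arginine, and BCKDHA (-1.07), a subunit of the dehydrogenase that breaks down branched-chain amino acids. PPM1K, the phosphatase that activates that dehydrogenase, had a log2 fold change of 1.32, and GCLM, the regulatory subunit for glutathione synthesis, of 1.22. BCAT2, BCKDHA and PPM1K thus belong to the same pathway and were not all changed in the same direction.

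Of 15 amino acid carriers outside the families that were tested, 5 were called higher and 1 lower (40%, against 24.6% of all genes called, 11.1% higher and 13.6% lower), with a median log2 fold change of 0.28. No test of these shares was made. The largest rises were SLC15A4 (1.01), a lysosomal carrier of histidine and peptides, SLC25A13 (0.89), the mitochondrial aspartate/glutamate carrier, and SLC25A29 (0.67), a mitochondrial carrier of basic amino acids. SFXN2, a sideroflexin of the mitochondrial membrane, was the gene that fell (-1.49). Of 32 genes that sense amino acids at the lysosome, 4 were called higher and 3 lower (21.9%), somewhat under the 24.6% of all genes, with a median of 0.05. Among these, MTOR, the kinase itself, fell from 62.8, 70.4 and 65.2 CPM to 28.1, 22.7 and 28.7 CPM (log2 fold change -1.32, edgeR QL, BH-adjusted p = 8.68e-05), RRAGB (-0.94) and MLST8 (-0.85) were also lower, and SEC13 (0.89), FNIP2 (0.85) and LAMTOR5 (0.71) were the largest rises.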

How the data were processed

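RNA-seq libraries of SKOV3 cells (3 NC, 3 si-EIF5A2) were grouped by their labels. The deposited values are estimated counts per gene, which the authors made with StringTie and left as whole numbers, neither normalized nor pooled. The study's text does not name an aligner or build for these counts. Low values lie at multiples of about 3.67 counts, so depth in fragments is below the totals. A test for counts had been planned and was used unchanged.

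Symbols, positions and exon lengths came from GENCODE release 29, in which 58552 of 58825 identifiers were found, and promoters from RefSeq. In R 4.3.3, edgeR 4.0.16 was used with filterByExpr, TMM factors, robust fits for the quasi-likelihood test, and adjustment by Benjamini-Hochberg over 16208 genes (common biological coefficient of variation 0.261). The standard error is the log2 fold change over the square root of F. Steps were tested on simulated counts. All genes called, 6 carriers chosen by role, and genes with a BH-adjusted p under 0.05 were to be named, with up to 3 rises and 3 falls per list (mean of at least 5 CPM), ATF4 and ASNS. This rule does not cover RRAGB, SFXN2, TRIB3, EIF2AK4, ALDH18A1, PSAT1, overlapping genes and members at 0, which were picked once their values were known. The members and lists were chosen with earlier results of these data known. Alternatives were DESeq2 1.42.0, other scalings, filters and thresholds, a replicate block, counts divided by their step, and leaving out each library.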

Additional observations from a re-analysis of the deposited data

How the results depend on the processing

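The count of 9 transporter genes called (3 higher, 6 lower) lay between 8 and 11 under DESeq2, RLE, upper-quartile or no scaling factors, no filter on low counts, a minimum of 10 counts, the replicate block and counts divided by their step, and between 7 and 9 with a library left out (2 to 3 higher, 5 to 6 lower). It was 18 (8 higher, 10 lower) without a fold limit and 5 (3 lower) with an unadjusted p under 0.05 and a change over 2-fold. Over single genes, 404 of 447 values kept direction and side of the threshold of the call, 13 lost the call, 13 gained it and 17 changed sign. The values without a fold limit and with the 2-fold rule re-read the main fit at another threshold, so their direction could not change. Removing the fold limit could only add calls, and 9 of those gained came from it. The sign changes were in genes that were not called. SLC38A7 went to -0.0021 with upper-quartile factors, -0.0228 without a filter, -0.0018 with 10 counts in every library and -0.15 with the replicate block, and SLC1A1 to 0.086 with the block. With a library left out, log2 fold changes ranged from -0.63 to 0.83 in SLC1A1, -0.52 to 0.31 in SLC6A6, -0.055 to 0.125 in SLC38A6, -0.24 to 0.38 in SLC38A7 and -0.29 to 0.091 in SLC43A2, and the difference in log2 ratio from -0.057 to 0.20 for SLC7A5 to SLC3A2 and from -0.25 to 0.076 for SLC7A11 to SLC3A2. The cause was not tested. Over all genes tested, same-numbered libraries did not deviate together (r = -0.02, 0.01 and -0.003). The labels do not say whether they shared a culture or batch, and a shared effect on a few genes would not show in these values. With the replicate block, 3731 genes in place of 3992 and 8 transporter genes were called, SLC6A17 being lost (edgeR QL, BH-adjusted p = 0.0567). Depth limits SLC7A7, SLC1A1 and the genes that were not tested, whose counts lie near the limit of detection.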
